A study of Caenorhabditis elegans with 2 samples.

Results

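Nuclear genes of mitochondrial respiration were taken from a ChIP-seq map of the C2H2 zinc finger protein ZFP-2 in Caenorhabditis elegans. The genes were chosen by symbol, not by any peak value: nuclear protein-coding genes of the WBcel235 annotation named nuo-, nduf- or cox-, together with gas-1, mev-1, sdha-1, sdhb-1, sdhd-1, isp-1, cyc-1, cyc-2.1, ucr-1, ucr-2.1, ucr-2.2, ucr-2.3 and atp-1 to atp-5. This gave 44 of 19973 nuclear protein-coding genes. They comprised 13 genes of complex I, 4 of complex II, 6 of complex III, 1 cytochrome c gene, 7 structural genes of complex IV, 8 cox genes with numbers of 10 or more, which mostly encode assembly and copper delivery factors, and 5 of complex V.

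The animals were hermaphrodites of strain OP534, genotype unc-119(tm4063) III; wgIs534, harvested whole at the L4 stage, 52 hours after release from starvation at L1. They carried ZFP-2 with GFP and FLAG at its C terminus, and chromatin was precipitated with an antibody to GFP. There was 1 group of 2 biological replicates, so no contrast between conditions and no test over samples could be made. Both replicates share 1 transgenic line, and untagged animals were not analysed here. In whole animals, strong occupancy in few cells and weak occupancy in many cannot be told apart. Read depth is unknown.

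The respiratory chain sits in the inner mitochondrial membrane. Complexes I and II pass electrons from NADH and succinate to ubiquinone, complex III passes them on to cytochrome c, and complex IV hands them to oxygen. Complexes I, III and IV pump protons, and complex V, the ATP synthase, uses the returning flow to make ATP. Most subunits are encoded in the nucleus, and in worms reduced function of several of these genes, among them gas-1, mev-1, isp-1 and nuo-6, is known to alter lifespan or stress resistance.

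The authors' thresholded ce11 list holds 660 peaks, of which 642 are nuclear. A gene is counted as carrying a peak when a summit, the position of highest signal in a peak, falls between 1000 bp before and 200 bp after an annotated 5′ end. Of the 44 respiration genes, 11 carried a peak (25%, exact 95% interval 13.2 to 40.3), against 2.79% of all nuclear protein-coding genes. They were nduf-2.2 and nduf-9 in complex I, cyc-1 and ucr-2.2 in complex III, cyc-2.1, cox-5A, cox-5B, cox-6A and cox-6B in complex IV, and atp-1 and atp-3 in complex V. Complex IV subunits had the highest count of any complex (4 of 7 genes, exact 95% interval 18.4 to 90.1), whereas none of the 8 cox assembly genes (0 to 36.9) and none of the 4 complex II genes (0 to 60.2) carried a thresholded peak. These intervals overlap, so the order of the complexes is a description of counts. The intervals also treat genes as independent draws. No test of the list was made, and none of these counts is called particular to respiration.

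**Figure D1:**
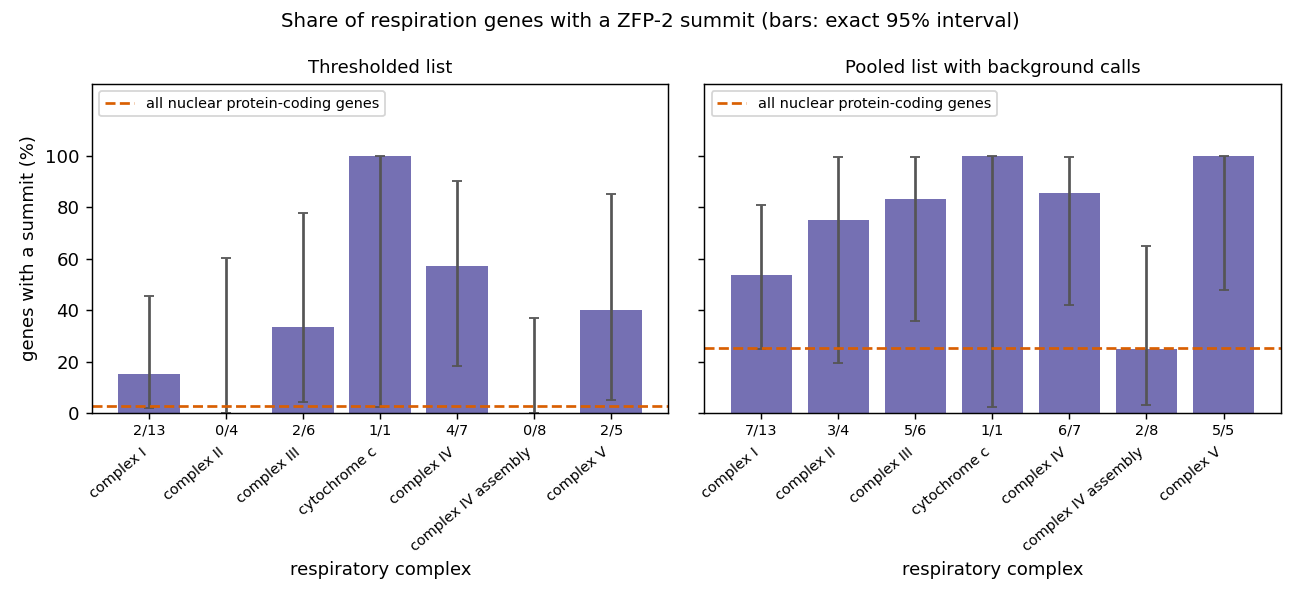
Share of genes in each respiratory complex with a summit in the promoter window (y axis, percent), in the thresholded list (left) and in the pooled list with background calls (right). Bars are shares, error bars exact 95% intervals, numbers below the bars genes with a summit over genes in the class, and the dashed line all nuclear protein-coding genes (2.79% and 25.4%); 4 of 7 complex IV genes and 0 of 8 assembly genes had a thresholded summit.

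The sequences under 3 of the peaks are shown, since they differ in how much of a recurring word they hold. Each runs 5′ to 3′ on the coding strand of the named gene, 201 bases centred on the summit, read from the WBcel235 genome, which is ce11. Capitals mark the 6-base word ACGCAG, the word GACGCA and the word AGACGC or their reverse complements. These words overlap in the 8-base word AGACGCAG and were already known to be frequent at the summits of these data. The 3 windows lie at chrIII:2785964-2786164 for cox-6B and chrX:15173640-15173840 for ucr-2.2, both on the plus strand, and at chrIV:4748448-4748648 for cyc-2.1 on the minus strand.
cox-6B: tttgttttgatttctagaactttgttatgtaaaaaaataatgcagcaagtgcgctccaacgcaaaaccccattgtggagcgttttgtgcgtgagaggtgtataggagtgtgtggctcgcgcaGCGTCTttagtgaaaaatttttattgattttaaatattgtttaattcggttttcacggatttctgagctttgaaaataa
ucr-2.2: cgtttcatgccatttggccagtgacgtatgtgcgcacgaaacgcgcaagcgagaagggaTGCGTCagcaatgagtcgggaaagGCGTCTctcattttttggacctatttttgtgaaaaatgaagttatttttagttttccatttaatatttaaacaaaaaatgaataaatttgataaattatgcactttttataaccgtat
cyc-2.1: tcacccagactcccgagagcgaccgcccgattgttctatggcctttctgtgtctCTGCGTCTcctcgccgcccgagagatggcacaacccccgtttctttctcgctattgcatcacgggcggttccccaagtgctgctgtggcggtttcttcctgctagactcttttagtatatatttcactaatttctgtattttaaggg
Among these, cyc-2.1 held the whole 8-base word, read as its reverse complement, and cox-6B and ucr-2.2 held parts of it.

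Among the 44 genes, the strongest peak was in complex V. At atp-1, the alpha subunit of the catalytic head, the authors' signal was 619 in replicate 1, 749.6 in replicate 2 and 1364 in the pooled list. Signals describe peaks within a list and are not compared between lists. The atp-1 peak ranked 33 in replicate 1, 27 in replicate 2 and 30 among all pooled peaks, so it stood near the top of every list. It lies on chromosome I from 12652070 to 12652505, with its summit 12 bp before the 5′ end of atp-1. That sequence also falls in the window of mcrs-1, a gene on the opposite strand whose 5′ end is 178 bp from the summit.

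At atp-3, which encodes the oligomycin sensitivity conferral protein that joins the head to the peripheral stalk, the signal was 43.97 in replicate 1, 57.8 in replicate 2 and 104 pooled. Its summit stood 16 bp before atp-3 and 233 bp from the start of F27C1.2 on the opposite strand, a gene whose RefSeq product is a copper transport protein. The remaining complex V genes had summits only below the threshold. The beta subunit gene atp-2 came closest, with a pooled signal of 71.4 at rank 925, and with 40.1 in replicate 1 and 34.2 in replicate 2. The peripheral stalk gene atp-5, subunit d, had a pooled signal of 36.3. At atp-4, coupling factor 6, the pooled signal was 34.2 at rank 6087, with the summit 126 bp after the 5′ end. Replicate 2 had no summit in the atp-4 window. All 5 complex V genes thus had a pooled summit, and their pooled signals spread from 34.2 to 1364.

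In complex IV, the cytochrome c oxidase that reduces oxygen, peaks stood at both cox-5 genes, which encode separate nuclear subunits. The signal of the cox-5A peak was 165 in replicate 1, 190.5 in replicate 2 and 352 pooled, and its summit lay 320 bp before the 5′ end. No other gene had that summit in its window. The cox-5B peak reached 98.4 in replicate 1, 153 in replicate 2 and 253 pooled, with the summit 12 bp before a 5′ end. Both peaks ranked among the 119 strongest of either replicate and of the pooled list.

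The cox-6B peak had a signal of 102 in replicate 1, 116 in replicate 2 and 215 pooled. Its place in the annotation needs care. Ensembl draws cox-6B from 2699663 to 2786859 on chromosome III with 2 annotated 5′ ends, and the summit lay 138 bp before the downstream end at 2786202, inside an intron of the longer model. RefSeq starts the gene at that downstream end. The cox-6B summit also stood 116 bp from the start of Y71H2AM.20, on the opposite strand, and 788 bp from that of nduc-2, which RefSeq names as a complex I subunit. A single peak therefore counts for genes of complexes I and IV.

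The cox-6A peak had a signal of 70.7 in replicate 1, 64.6 in replicate 2 and 139 pooled. Its summit was 789 bp before the nearest cox-6A 5′ end and 37 bp from the snRNA gene F54D8.7, so the peak lay nearer the small RNA gene. Whether it belongs to cox-6A was not tested. The other complex IV subunit genes had only weak calls. The pooled signal was 48.1 at cox-6C and 41.98 at cox-4, while cox-7C had a summit in replicate 2 alone, at 15.5.

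No cox assembly gene had a thresholded summit in its window. The strongest was cox-14, whose RefSeq product is a cytochrome c oxidase assembly factor, with 30.3 in replicate 1, 47.9 in replicate 2 and 74.0 pooled at rank 860. Only cox-16 also had a pooled summit, at 25.6 and rank 13919. cox-11, a copper-binding factor, had a summit in replicate 2 alone at 17.5, and the copper chaperone gene cox-17 in replicate 1 alone at 15.4. For cox-10 and cox-15, which make heme A, and for cox-18 and cox-19, no list had a summit in the window.

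**Figure D2:**
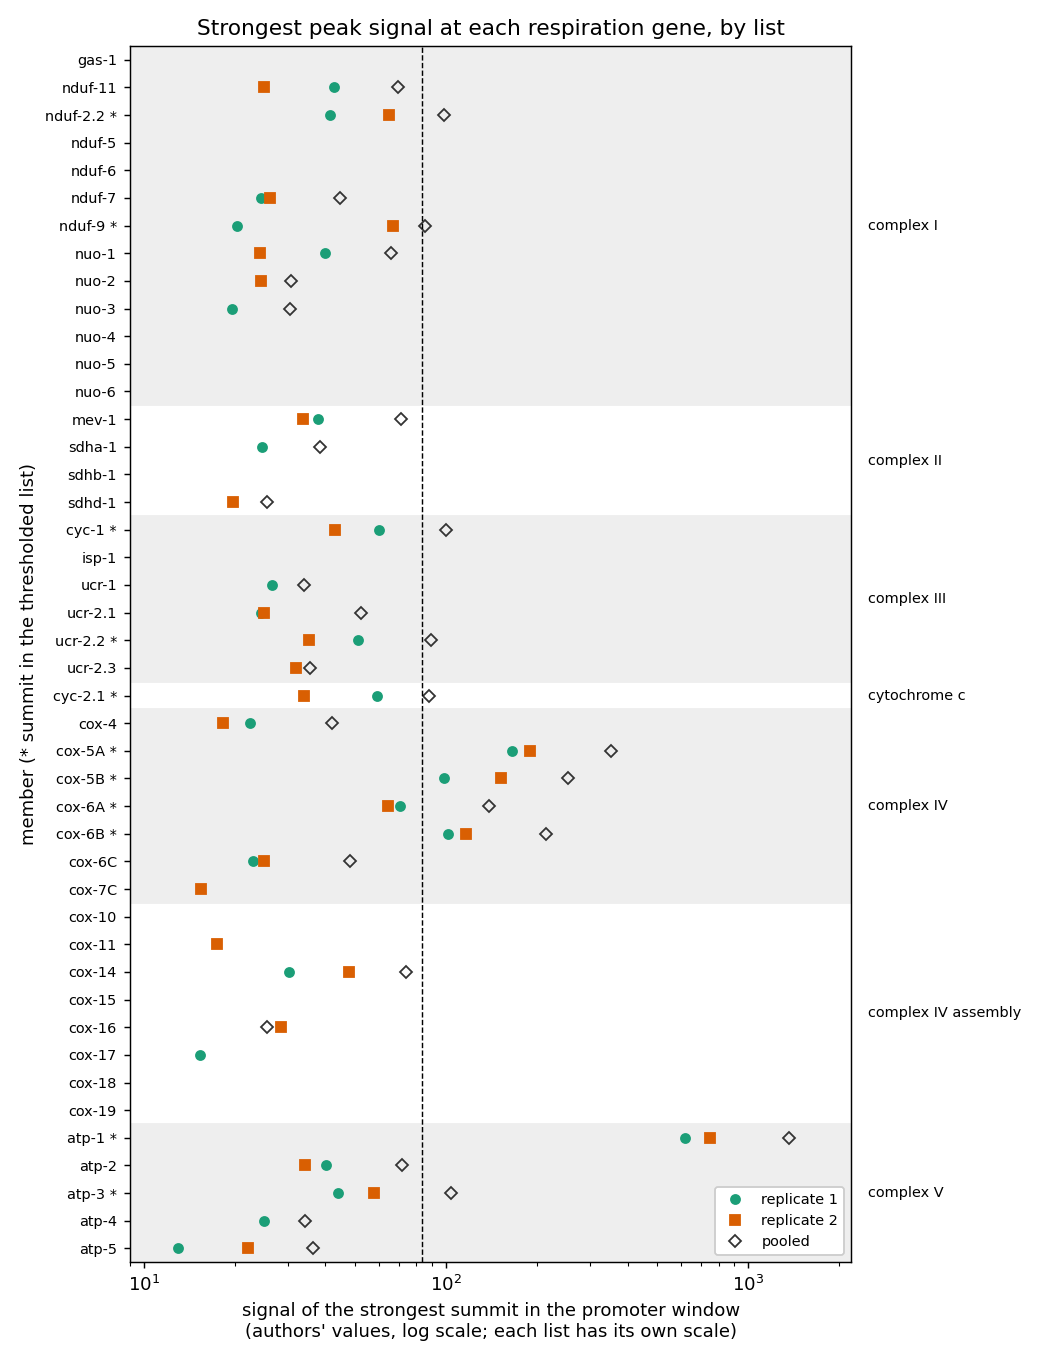
Signal of the strongest summit in the promoter window of each of the 44 genes (x axis, authors' values on a log scale) in replicate 1, replicate 2 and the pooled list, grouped by complex (y axis). Asterisks mark the 11 genes with a thresholded summit, and the dashed line is the lowest thresholded signal, 83.8, on the pooled scale; atp-1 at 1364 stands apart, then cox-5A, cox-5B and cox-6B from 215 to 352.

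In complex III and cytochrome c, peaks stood not far above the threshold. At cyc-1, the cytochrome c1 gene, the signal was 60.2 in replicate 1, 43.0 in replicate 2 and 100.4 pooled, 257 bp before the 5′ end. At ucr-2.2, a core protein gene of complex III, it was 51.4, 35.2 and 89.2 in the same order, 164 bp before the 5′ end. At cyc-2.1, which encodes the mobile carrier cytochrome c itself, it was 59.3, 34.0 and 88.2. All 3 were among the 660 strongest peaks of replicate 1, at ranks 266, 357 and 276, and outside the 660 strongest of replicate 2, at ranks 916, 1527 and 1653.

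The cyc-2.1 summit lay 99 bp before the downstream of 2 annotated 5′ ends, within an intron of the longer transcript, and in the window of tctn-1, whose 5′ end is 716 bp away. Among related genes, the ucr-2 set was uneven: ucr-2.1 had a pooled signal of 52.3 and ucr-2.3 of 35.5, with no replicate 1 summit at ucr-2.3. The other core protein gene, ucr-1, had a pooled signal of 34.0. The Rieske iron-sulfur protein gene isp-1 had no summit in any list. Neither had cyc-2.2, the other cytochrome c gene, which the symbol rule leaves out.

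Complex I had 2 of 13 genes with a peak, and neither peak had its nearest 5′ end at the complex I gene. nduf-2.2 and gas-1 encode versions of the same subunit, which lies near the ubiquinone site. The nduf-2.2 window held a peak with a signal of 41.5 in replicate 1, 64.9 in replicate 2 and 98.6 pooled, while gas-1 had no summit in any list. The nduf-2.2 summit was 823 bp before its 5′ end, in an exon of the noncoding gene T26A5.10, and nearer to dlc-1, a dynein light chain gene 620 bp away on the opposite strand.

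The nduf-9 peak was the weakest of the 11, with a pooled signal of 85.1 against a lowest thresholded value of 83.8 and a highest value outside the list of 83.7. Within 100 bp of its summit the signal was 20.4 in replicate 1 and 26.5 in replicate 2, at ranks 3757 and 3585. Replicate 2 also had a stronger summit, at 67.0 and rank 328, 493 bp before the 5′ end. That summit, at 3249068, lay more than 100 bp from the pooled summit but inside the called peak, which runs from 3248975 to 3249410. The pooled summit, 618 bp before nduf-9, lay within the microRNA gene cel-mir-4936, and the nearest 5′ end was that of Y53G8AL.4 at 299 bp. Counting only summits within 100 bp, the ranks of 3757 and 3585 were lower than those of any other of the 11 peaks. For replicate 2 this holds under that distance rule alone, given the summit of rank 328 in the same peak.

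Below the threshold, 5 more complex I genes had pooled summits. nduf-11 had a signal of 42.7 in replicate 1, 25.1 in replicate 2 and 69.8 pooled, and nuo-1, the NADH-binding flavoprotein, 39.98, 24.4 and 66.1. Both were among the 660 strongest of replicate 1. nduf-7, nuo-2 and nuo-3 had pooled signals of 44.5, 30.7 and 30.5. No list had a summit in the windows of gas-1, nduf-5, nduf-6, nuo-4, nuo-5 or nuo-6.

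Complex II, succinate dehydrogenase, had its highest signal at mev-1, the cytochrome b subunit gene, with 37.9 in replicate 1, 33.7 in replicate 2 and 71.0 pooled at rank 936. The flavoprotein gene sdha-1 had a pooled signal of 38.2 without a replicate 2 summit, and sdhd-1 one of 25.7 without a replicate 1 summit. The iron-sulfur subunit gene sdhb-1 had none.

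Counting weaker calls as well raised the number of genes with a summit. In the pooled list, which includes background calls, 29 of 44 genes had a summit in the window (65.9%, exact 95% interval 50.1 to 79.5), against 25.4% of all genes. Both shares include the genes with a thresholded peak, 11 of them members, so they do not measure weaker calls alone. Pooled ranks 661 to 1320, the next block of the same length as the thresholded list, held the strongest summit of 5 genes, nduf-11, nuo-1, mev-1, cox-14 and atp-2 (11.4%, against 2.14% of all genes). Ranks 1321 to 2640 held 2 genes (4.55%, against 3.30%) and ranks 2641 to 5280 held 4 (9.09%, against 4.59%). At ranks 5281 to 14658 the share was 15.9%, near the 12.5% of all genes. The full replicate 1 list had summits at 26 members (59.1%, against 28.1%) and the full replicate 2 list at 27 (61.4%, against 28.3%). Summits in both replicates were found at 21 members (47.7%, against 16.8%), and 12 members had none in either (27.3%, against 60.4%).

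**Figure D3:**
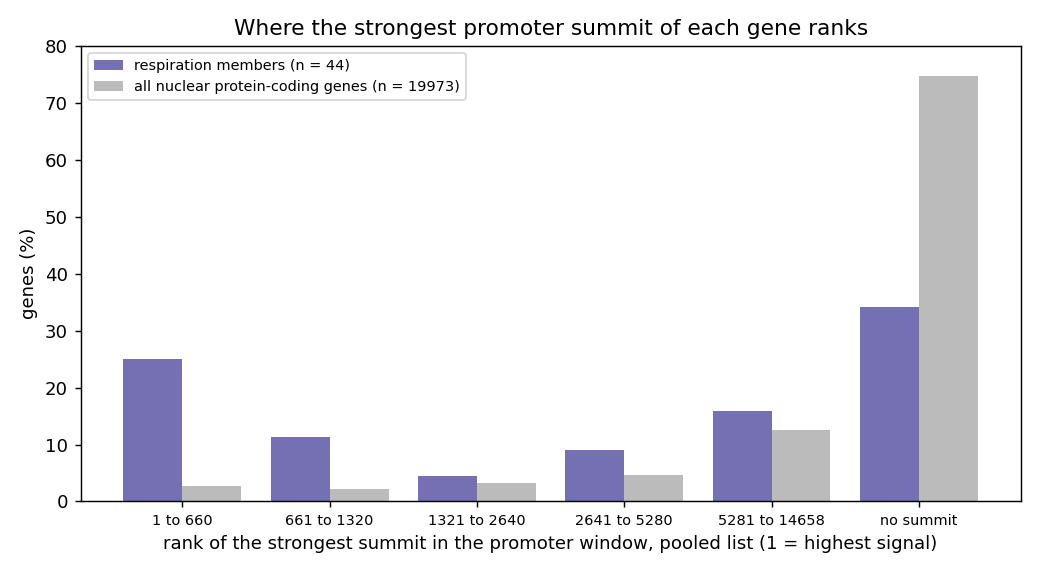
Rank of the strongest summit in each gene's promoter window in the pooled list (x axis, rank 1 is the highest signal) and the share of genes in each block (y axis, percent), for the 44 respiration genes and all 19973 nuclear protein-coding genes. The blocks differ in length; members stand at 25% in ranks 1 to 660 and 11.4% in ranks 661 to 1320, against 2.79% and 2.14% of all genes, and 34.1% of members against 74.6% of all genes had no summit.

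The replicates were not alike over these peaks. Among equally long lists of the 660 strongest peaks, replicate 1 had a summit in the window of 13 members (29.5%, against 2.81% of all genes) and replicate 2 of 8 (18.2%, against 2.74%). Both of these lists held a summit within 100 bp of 7 of the 11 member peaks. A further 3 were matched in replicate 1 alone, none in replicate 2 alone and 1 in neither. Over all 396 thresholded promoter peaks the shares were 66.4% in both, 14.1% in replicate 1 alone, 15.9% in replicate 2 alone and 3.54% in neither. The member share in both was thus near that of all promoter peaks, and 11 peaks are too few to set the replicates apart. The median pooled signal of the 11 member peaks was 104, against 119 over the 396 promoter peaks, so the respiratory peaks were not a strong set as a whole.

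Only summits from 1000 bp upstream to 200 bp downstream of a 5′ end were counted, so their distances are bounded by that rule. In the thresholded list the members' median position was 164 bp upstream, with a range of 12 to 823 bp, and 7 of 11 lay within 300 bp upstream (63.6%, against 52.9% of the 558 genes with a peak). With pooled summits, 18 of 29 members did (62.1%, against 38.4%). Annotated 5′ ends of trans-spliced worm genes often mark the splice acceptor in place of the start of transcription, so distances are to the annotation only.

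**Figure D4:**
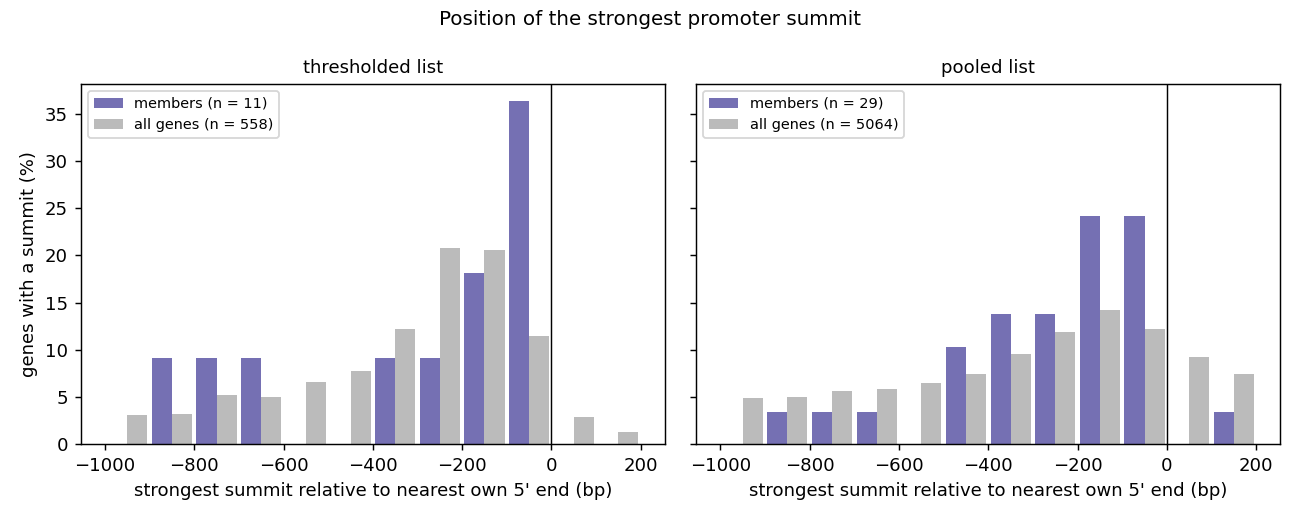
Position of the strongest summit relative to the nearest annotated 5′ end of the gene (x axis, bp, negative is upstream) as a share of genes with a summit (y axis, percent), for respiration genes and all genes in the thresholded (left, 11 and 558 genes) and pooled list (right, 29 and 5064 genes). All 11 thresholded member summits lie upstream, with the 3 farthest at nduf-9, cox-6A and nduf-2.2.

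The members also differ in what lies upstream of them. In 14, a protein-coding gene on the same strand ended within 500 bp of the most upstream 5′ end, and 3 of these carried a peak (cyc-1, ucr-2.2 and cyc-2.1; 21.4%, against 1.88% of all genes so arranged). In 25, the neighbour lay on the opposite strand within 2000 bp, and 5 carried a peak (nduf-2.2, cox-5B, cox-6B, atp-1 and atp-3; 20%, against 6.30%). Of the remaining 5, nduf-9, cox-5A and cox-6A carried a peak (60%, against 1.48% of all genes so arranged). At cox-6B and cyc-2.1 the peak lay before a downstream 5′ end, whereas the class was set at the most upstream one. For these genes the class does not describe the sequence next to the peak. Of the 8 assembly genes, 5 (cox-11, cox-15, cox-17, cox-18 and cox-19) were in the same-strand class. Whether that arrangement has a part in their lack of peaks was not tested.

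Word content at the member summits was near that of other promoter peaks. Within 100 bp of the summit, on both strands, ACGCAG stood at 3 of 11 member summits (cyc-1, cyc-2.1 and atp-3; 27.3%) and at 25% of the 396 promoter summits. GACGCA stood at ucr-2.2, cyc-2.1 and cox-5A (27.3%, against 25.5%). AGACGC stood at ucr-2.2, cyc-2.1, cox-5B and cox-6B (36.4%, against 20.2%), ACGCGC at 4 (36.4%, against 21.5%), and GCGAGA at 3 (27.3%, against 28.5%). In the 201 bases ending at the 5′ end of the longest coding transcript, ACGCAG was present in 5.89% of all genes and in 5 of 44 members, GACGCA in 6.09% and 3, AGACGC in 5.47% and 5, ACGCGC in 4.28% and 5, and GCGAGA in 6.20% and 0.

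The whole word AGACGCAG stood only at cyc-2.1 among the 11 summits, against 11.6% of promoter summits and 2.78% of all upstream sequences. AAAAAT stood at 6 (54.5%, against 57.6%) and upstream of 42 of the 44 members (75.3% of all genes). At atp-1, the strongest member, none of the 5 words with G and C was found, nor at nduf-9 and cox-6A. G and C made up 44.4% ± 8.35 (SD, n = 11) of the bases around member summits and 45.3% ± 7.01 (SD, n = 396) around all promoter summits. With 11 summits, differences of this size in word content cannot be read as features of respiratory genes.

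Other genes of mitochondrial energy metabolism lie outside the symbol rule. In 6 further lists, 70 of 72 genes were matched, 8 carried a thresholded peak (11.4%, exact 95% interval 5.07 to 21.3, against 2.79% of all genes), and 44 had a pooled summit (62.9%, against 25.4%). Of 12 further ATP synthase genes 2 carried a peak. Y82E9BR.3, which encodes the c subunit of the membrane rotor, had 751 in replicate 1, 915 in replicate 2 and 1664 pooled at rank 24, above atp-1 in the pooled list. asg-2, a subunit g gene, had a pooled signal of 106 and shares its summit with glr-6. The summit at T27E9.2, named cytochrome b-c1 complex subunit 6 by RefSeq, had 1079, 1404 and 2458 in the same order, but it is shared with ant-1.1 and abcf-2 and lay 529 bp before T27E9.2.

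sco-1, a copper delivery factor of complex IV known from yeast, had a pooled signal of 179 and was the only gene with a peak among 8 matched assembly genes. Of 20 genes of the tricarboxylic acid cycle and pyruvate dehydrogenase, 2 carried a peak, dld-1, the shared dihydrolipoyl dehydrogenase (135), and aco-2, mitochondrial aconitase (103), which shares its summit with eef-1B.1. Of 17 matched import genes, tomm-20, an outer membrane receptor (116), and ddp-1, a small intermembrane space chaperone (117) that shares its summit with ttc-7, carried a peak. None of 8 coenzyme Q genes did (exact interval 0 to 36.9 percent), although 5 had a pooled summit. The exact intervals were 0.316 to 52.7 percent for the assembly genes and 1.23 to 31.7 percent for the cycle and pyruvate dehydrogenase genes. For the import genes the interval was 1.46 to 36.4 percent. Each of these intervals includes the 2.79% of all genes, so these counts do not set the lists apart from all genes or from each other.

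A search of RefSeq protein names for respiratory subunits, chosen after the values were seen, found 53 further genes, of which 9 carried a peak (16.98%, exact 95% interval 8.07 to 29.8, against 2.79% of all genes). Besides Y82E9BR.3, T27E9.2, asg-2 and nduc-2 they were the complex IV genes F36A2.7, named cytochrome c oxidase subunit 4 (473), and F29B9.11, named polypeptide VIIc (418), and the complex I genes ndua-8 (235.3), ndub-8 (104) and Y38E10A.24 (100.2). Other genes share the summits at ndua-8 (Y54F10AM.15 and rbc-2), ndub-8 (cup-14) and Y38E10A.24 (Y38E10A.22). F36A2.7 had 187 in replicate 1 and 286 in replicate 2, and no other gene shared its summit. Its RefSeq name is that of cox-4, whose own window held a pooled signal of 41.98. F29B9.11 had 200.1 and 225, and its summit is shared with jmjd-1.2 and mrps-21. The gene cox-7C, with the same RefSeq name, had no pooled summit. In both of these pairs the peak stood in the window of the gene without a cox symbol, though at F29B9.11 it also counts for the 2 sharing genes. The reverse held for subunit VIa, where cox-6A carried a peak and F22B5.4, the other gene so named, had neither a thresholded nor a pooled summit. That cox-6A summit, however, lay 789 bp before its 5′ end and 37 bp from the snRNA gene F54D8.7.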

How the data were processed

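ChIP-seq of ZFP-2 with a GFP tag was analysed from peak lists of 2 biological replicates, as the labels number them. Nothing in the labels says how the cultures were separated. Per the deposited description files, the authors derived lists for each replicate and for the pooled replicates, background calls included, from alignments and a control file, and a thresholded list by irreproducible discovery rate from both replicates. The control's own data were not analysed here. No source used here names the aligner, the peak caller or the threshold. The signal of each peak is the authors' value, its scale is not stated, and depth is unknown. The deposited −log10 q column was read but chose no peak. The 660 thresholded ce11 peaks were the 660 of highest signal in the pooled list, which holds 14658, against 18200 for replicate 1 and 17770 for replicate 2. No coordinates were converted from ce10, and only the length of its thresholded list, 871, was used.

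Summits were set against 29784 transcript 5′ ends, from 19973 protein-coding genes of the nuclear genome in Ensembl release 115 (WBcel235), from 1000 bp upstream to 200 bp downstream, with Python 3.11.15, numpy 2.4.6, pandas 2.3.3 and scipy 1.17.1, and plotted with matplotlib 3.10.9. Product names and genome sequence came from RefSeq. Intervals are exact (Clopper-Pearson, 95%) and cover counting error only. The counting steps were tested on simulated data. Genes were named by rule: members with a thresholded summit, genes sharing it, members in the next 660 pooled ranks, the strongest member of each complex, the paralogues of gas-1, ucr-2 and cyc-2, and up to 4 genes of highest signal from each further list. Other members are named to account for all of them. The members and lists were chosen with earlier results of these data known. Alternatives were other windows, 5′ ends, rules tying peaks to genes, thresholds, single replicates, structural subunits alone and removal of summits near small RNA genes. RefSeq 5′ ends, genes added by RefSeq protein name, and summits required in both replicates were chosen after seeing the data.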

Additional observations from a re-analysis of the deposited data

Results flagged for a closer look

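The mitochondrial genome encodes further subunits of the same complexes, outside the nuclear comparison. Thresholded summits lay inside 8 of its 12 protein-coding genes, ND1 and COX3 among them. The mitochondrial genome held 18 thresholded peaks in all, with signals of 239.8 to 8713, and summits outside protein-coding genes were not counted apart. Replicate 1 had 18 mitochondrial peaks in all and summits in 8 of the 12 genes, and replicate 2 had 12 peaks and summits in 6. This was singled out because it is signal in a part of the genome that the promoter comparison did not use. The level in the control was not analysed here, and the part of mitochondrial DNA copy number in these signals was not tested.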

How the results depend on the processing

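The count of 11 respiration genes with a thresholded peak stayed within 1.5 times under 11 of 14 alternatives. It was 5 with the 330 strongest peaks (11.4%, against 1.57% of all genes), where cox-5A, cox-5B, cox-6A, cox-6B and atp-1 remained. With a summit also required among the 660 strongest of both replicates it was 7 (15.9%, against 2.01%). With respiratory genes added by RefSeq protein name it was 20 of 97 (20.6%, against 2.79% of all genes). That count includes cox-6B and nduc-2, which share a single peak. No list was remade without a replicate. With the 660 strongest peaks of a single replicate in place of the thresholded list, the count was 13 for replicate 1 (against 2.81% of all genes) and 8 for replicate 2 (against 2.74%). With a full replicate list in place of the pooled list, 26 members had a summit in replicate 1 (against 28.1%) and 27 in replicate 2 (against 28.3%). When each summit went only to its nearest 5′ end, 8 genes were counted (18.2%, against 1.91%), without cox-6B, nduf-2.2 and nduf-9. A window of 500 bp upstream to 100 bp downstream also gave 8 (18.2%, against 2.13%), without cox-6A, nduf-2.2 and nduf-9. Using only the longest coding transcript gave 9 (against 2.64% of all genes), without cox-6B and cyc-2.1, and leaving out summits near small RNA genes gave 10 (against 2.48%), without cox-6A. Assembly genes were gained under 2 alternatives, cox-10 with a window of 2000 bp upstream (12 genes, 27.3%, against 3.62%) and cox-14 with as many of the strongest pooled peaks as the thresholded ce10 list holds (12 genes, 27.3%, against 3.58%). The pooled-list count of 29 stayed within 1.5 times under 6 of 6 alternatives, from 22 to 32. No paired analysis was possible because there is only 1 group. With 44 genes and 1 transgenic line, shares by complex are imprecise, and a gene without a listed peak may lie below the reach of these unknown depths.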
